A study of Mus musculus with 6 samples.

Results

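Translation initiation and elongation factors are the proteins that start and drive protein synthesis on cytosolic ribosomes, and their genes were followed here in hematopoietic stem cells (HSCs), the blood-forming cells of the bone marrow. The genes were taken by name, as every symbol that begins with Eif and a digit or with Eef1 or Eef2, without the stress kinase Eif2ak3 and without names that end in -ps, which mark pseudogenes. This gave 68 genes of 30803 rows, 55 of them Eif genes and 13 Eef genes, and 64 reached a mean of 1 FPKM over all libraries and were tested. The 4 that did not were Eif4a3l1, Eif4a3l2, Eif4ebp3 and Eef1akmt3. FPKM, which counts fragments relative to transcript length and library size, is a level per transcript length, and the deposited values were read as this unit from their form. Levels written with ± are means and SD of 3 libraries, and log2 changes with ± carry the SE of limma.

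The study sorted cells labelled as HSCs from the bone marrow of wild-type (WT) mice aged 5 months into MHCII-hi and MHCII-lo fractions, by how much MHC class II they carried. It made 6 poly(A) RNA-seq libraries, 3 of MHCII-hi and 3 of MHCII-lo cells (n = 3 each throughout), and all share the WT genotype and the label Ctrl. The sources used here give neither the mouse strain nor the sort markers that defined an HSC. Nothing ties a library to its own mouse or pool of mice, so the p-values reflect library-to-library spread alone, and this can be technical.

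Read depth is unknown, and the libraries summed to 333347 to 333530 FPKM in MHCII-hi and 305934 to 306945 FPKM in MHCII-lo. Of 10 HSC markers, Slamf1, Procr and Mecom lay below a mean of 1 FPKM, 5 rose and 2 did not pass, and the list summed to 84.8 to 89.1 FPKM in MHCII-hi and 52.0 to 52.6 FPKM in MHCII-lo. Markers of other cell types moved with the fractions. The 13 B and plasma cell markers all rose, summing to 8111 to 8255 FPKM in MHCII-hi and 454 to 513 FPKM in MHCII-lo, and immunoglobulin segments made up 8.26 to 8.34% of all FPKM in MHCII-hi and 0.392 to 0.458% in MHCII-lo. The 10 erythroid markers (9 fell) summed to 499 to 521 FPKM in MHCII-hi and 683 to 705 FPKM in MHCII-lo. The 10 cycling markers (9 fell, 1 rose) summed to 595 to 599.97 FPKM in MHCII-hi and 811 to 815 FPKM in MHCII-lo. The 10 neutrophil markers (6 rose, 3 fell) summed to 22278 to 22579 FPKM in MHCII-hi and 16489 to 16533 FPKM in MHCII-lo, and the 6 T cell markers (5 rose, 1 fell) to 46.9 to 51.0 FPKM in MHCII-hi and 25.2 to 28.8 FPKM in MHCII-lo. No marker on these lists was at 0 in all libraries. The neutrophil list summed to far more FPKM than the HSC list in every library, so the name HSC rests on the labels and not on these markers. Their part in the results below was not tested, and in these bulk libraries fewer cells of a type and less RNA per cell cannot be told apart.

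Initiation begins when the small ribosomal subunit, held open by eIF1, eIF1A and eIF3, takes up the initiator tRNA carried by eIF2 and GTP. The cap-binding complex eIF4F, made of the cap binder eIF4E, the scaffold eIF4G and the helicase eIF4A, brings the mRNA, and eIF5 and eIF5B complete the joining of the large subunit. In elongation eEF1A delivers aminoacyl-tRNA, eEF1B recharges eEF1A with GTP, and eEF2 moves the ribosome along the mRNA. Adult HSCs are known for a low rate of protein synthesis, which is held down in part by the eIF4E-binding proteins.

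Most of these genes were lower in MHCII-hi. Of the 64 tested, 52 fell, 2 rose and 10 did not pass (limma, Benjamini-Hochberg adjusted p under 0.05 over all 12295 genes). Over all tested genes 40.5% were called lower and 27.2% higher. These shares are the background for each count of falls and rises below that uses the same setting. In 53 of the 64 every MHCII-hi library lay below every MHCII-lo library, against 43.3% of all genes, and in 3 every MHCII-hi library lay above, against 29.6%. The median log2 change of the 64 genes was -0.27, beside -0.08 over all 12295 tested genes and -0.14 over the 4800 of them with a mean of at least 10 FPKM. Called falls of at least 0.58 on the log2(FPKM + 1) scale, which is 1.5-fold, were found for 9 of these genes and for 9.54% of all tested genes. Under median-of-ratios scaling 42 of the 64 fell and 4 rose. The median log2 change was then -0.18 for the 64 genes and -0.003 over all tested genes. The shares over all genes given above do not apply to that scaling. Summed over the 68 genes, the level was 5921 ± 26.8 FPKM in MHCII-hi and 6990 ± 26.8 FPKM in MHCII-lo (SD), which is 1.78% of all FPKM in MHCII-hi and 2.28% in MHCII-lo. The 2 genes that rose were Eif4g3, an eIF4G scaffold, and Eif4enif1, which carries eIF4E into the nucleus. The plot of log2 changes by complex shows both to the right of 0.

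**Figure D1:**
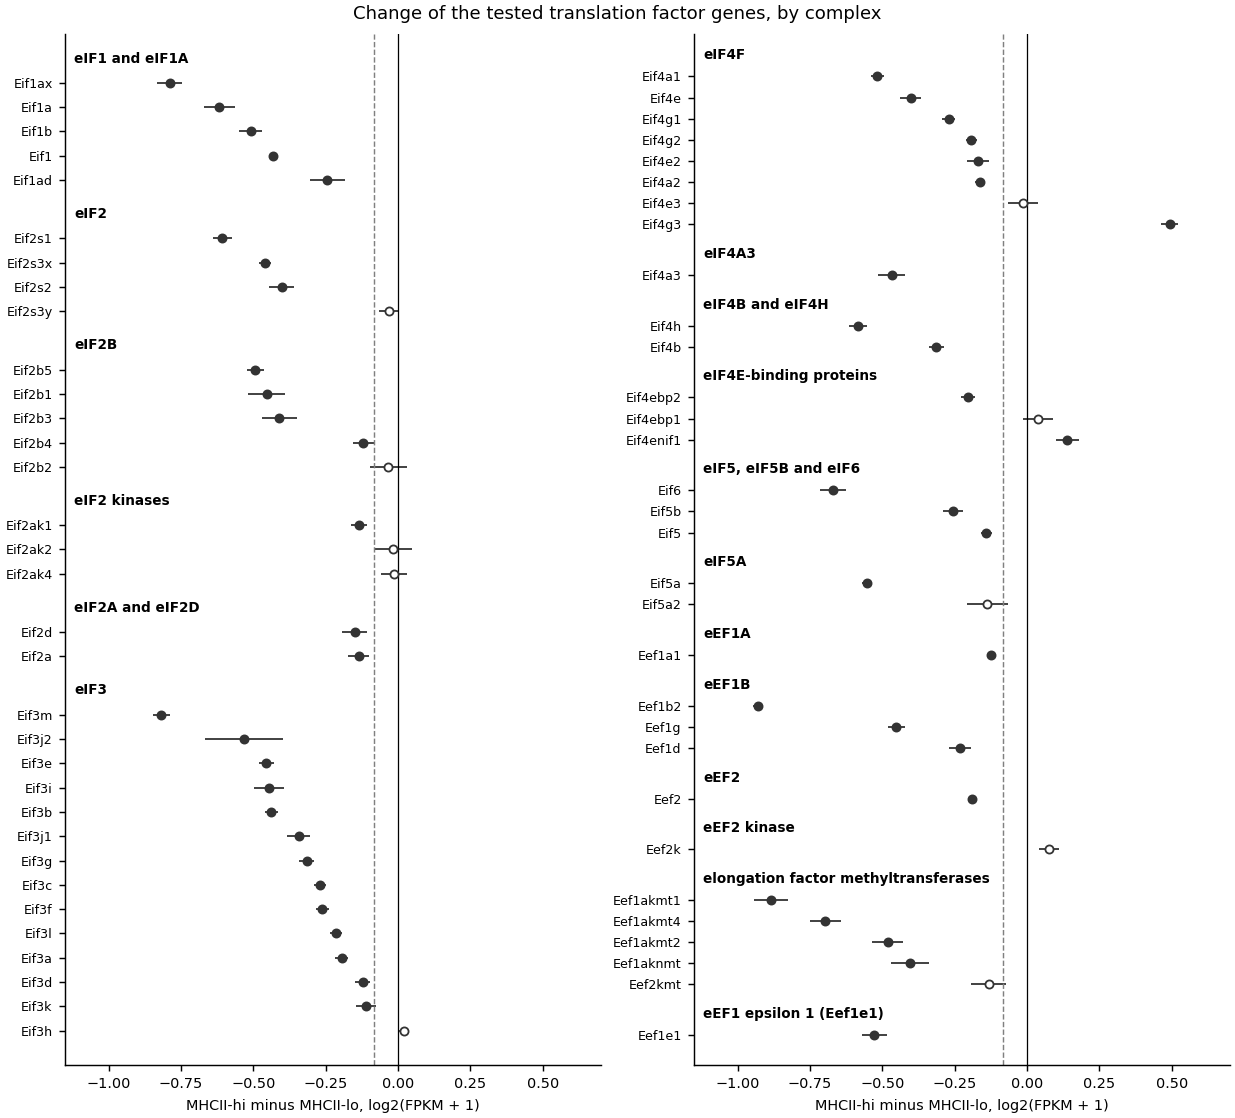
Difference between MHCII-hi and MHCII-lo on the log2(FPKM + 1) scale for the 64 tested genes, grouped by complex; points are limma estimates, bars are SE, and filled points passed the test while open points did not. The solid line marks 0 and the dashed line the median of all 12295 tested genes (-0.08), and most points lie to the left of it.

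The promoters of 3 of the 4 genes with the largest falls on the log2(FPKM + 1) scale (all but Eef1akmt1), of both genes that rose and of the X- and Y-linked copies of the eIF2 gamma gene are printed here, since these are the genes that the results turn on. Sequences came from RefSeq on GRCm38.p6, which held 67 promoters for 52 of the 68 genes; each shows 60 bases before the annotated start and 20 from it on, on the gene's strand, and the first entry is shown where the table holds several. Capitals mark CCGGAAG, a core that ETS family factors are known to bind, sought on both strands, and the pyrimidine-rich hexamers CTCTTT and CTTTTC, sought on the gene's strand, which can overlap each other.
Eif3m (chr2:105017008-105017087, minus strand): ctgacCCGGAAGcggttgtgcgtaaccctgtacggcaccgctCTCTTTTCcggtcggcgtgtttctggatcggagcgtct
Eef1b2 (chr1:63176771-63176850, plus strand): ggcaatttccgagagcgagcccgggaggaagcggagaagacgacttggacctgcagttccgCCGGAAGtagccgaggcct
Eif1ax (chrX:159372118-159372197, plus strand): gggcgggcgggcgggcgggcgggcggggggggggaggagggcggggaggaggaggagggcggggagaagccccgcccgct
Eif4g3 (chr4:137993395-137993474, plus strand): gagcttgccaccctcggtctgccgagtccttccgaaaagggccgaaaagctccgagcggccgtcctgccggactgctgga
Eif4enif1 (chr11:3202293-3202372, plus strand): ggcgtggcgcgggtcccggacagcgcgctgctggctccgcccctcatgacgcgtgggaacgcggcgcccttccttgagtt
Eif2s3x (chrX:94212632-94212711, minus strand): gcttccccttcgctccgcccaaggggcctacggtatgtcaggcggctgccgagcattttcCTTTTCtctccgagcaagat
Eif2s3y (chrY:1010535-1010614, plus strand): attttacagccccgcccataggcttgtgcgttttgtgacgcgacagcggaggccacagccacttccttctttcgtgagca

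Over the whole 300-base promoter, CCGGAAG stood in 29.9% of the 67 promoters of these genes, in 8.86% of all 32851 promoters of the table and in 18.8% of the 10752 promoters of tested genes. In the 80-base window the shares were 17.9% and 4.76% and, among tested genes, 10.8%. In 300 bases CTCTTT was held by 10.4% of these promoters, 12.1% of all and 10.9% of those of tested genes, and CTTTTC by 14.9%, 11.4% and 10.6%. In the 80-base window CTCTTT was held by 4.48% of these promoters (3 of 67), 3.39% of all and 2.91% of those of tested genes. There CTTTTC was held by 7.46% (5 of 67), 3.06% and 2.46%. The Eif4enif1 promoter printed is the first of 4 entries. Both CCGGAAG and CTTTTC occur in the 80-base window among its entries not shown. A match describes letters in a window and is not a binding site. The mRNAs of several elongation factors and eIF3 subunits are known to begin with a pyrimidine tract, the TOP element, through which mTORC1 controls their translation. The hexamers were counted at any position in the window, so their counts do not test for a TOP element. Those marked in Eif3m end before the annotated start, and that in Eif2s3x begins at it.

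eIF3 is the largest initiation factor, a scaffold of many subunits that binds the small ribosomal subunit. All 14 of its genes were tested, a pair of them for the loosely bound j subunit. Of these, 13 fell and Eif3h did not pass, where 40.5% of all tested genes fell. The median log2 change was -0.29, with a range of -0.82 to 0.02. Summed over the 14 genes the level was 667 ± 1.76 FPKM in MHCII-hi and 804 ± 2.20 FPKM in MHCII-lo (SD). Eif3m fell most. Eif3m was at 34.5, 33.1 and 34.5 FPKM in MHCII-hi libraries, against 62.2, 61.05 and 59.04 FPKM in MHCII-lo libraries. The groups stood far apart, with a log2 change of -0.82 ± 0.029 (SE; limma adjusted p = 1.01e-06). Eif3m (ENSMUSG00000027170.12; GRCm38 chromosome 2, 104999656 to 105017080, minus strand) is a protein-coding gene whose product belongs to the octamer that forms the body of eIF3.

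Eif3h, of the same octamer, was the most abundant eIF3 gene and the exception. Eif3h stood at 138, 139.8 and 142 FPKM in the MHCII-hi libraries and at 137, 138 and 138 FPKM in the MHCII-lo libraries. The groups overlapped (limma adjusted p = 0.301); the difference was 0.02 on the log2 scale, 0.12 and called higher under median-of-ratios scaling, and -0.08 and called lower once a length and GC trend based on median transcript length was removed (limma adjusted p = 0.0139). Within each library Eif3m stood at 0.237 to 0.2502 of the Eif3h level in MHCII-hi and at 0.427 to 0.454 in MHCII-lo, a ratio chosen after the values were seen. The other octamer genes fell by less than Eif3m. Eif3e was at 31.3 ± 0.545 FPKM in MHCII-hi and 43.3 ± 0.946 FPKM in MHCII-lo, Eif3c at 76.2 ± 1.01 FPKM in MHCII-hi and 92.1 ± 1.42 FPKM in MHCII-lo and Eif3f at 80.6 ± 1.18 FPKM in MHCII-hi and 96.8 ± 1.75 FPKM in MHCII-lo. Eif3a, which encodes the largest subunit, was at 53.2 ± 0.374 FPKM in MHCII-hi and 61.1 ± 1.41 FPKM in MHCII-lo and Eif3l at 44.8 ± 0.27 FPKM in MHCII-hi and 52.1 ± 0.881 FPKM in MHCII-lo. The smallest called fall was that of Eif3k, at 39.9 ± 0.713 FPKM in MHCII-hi and 43.2 ± 1.79 FPKM in MHCII-lo, and its call was lost under median-of-ratios scaling (limma adjusted p = 0.654). It was also lost without MHCII-hi replicate 1 or 2 or MHCII-lo replicate 1 or 3, with limma adjusted p between 0.0521 and 0.0754.

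The b, g and i subunits form a mobile module that reaches the mRNA entry side, and all 3 of their genes fell, with log2 changes of -0.44, -0.32 and -0.45; this grouping of subunits was chosen after the values were seen. Eif3b was at 61.4 ± 1.44 FPKM in MHCII-hi and 83.6 ± 0.89 FPKM in MHCII-lo, Eif3g at 33.6 ± 0.394 FPKM in MHCII-hi and 42.1 ± 1.14 FPKM in MHCII-lo and Eif3i at 20.2 ± 1.49 FPKM in MHCII-hi and 27.9 ± 0.184 FPKM in MHCII-lo. Eif3d, whose product can bind the cap of selected mRNAs, was at 26.7 ± 0.648 FPKM in MHCII-hi and 29.1 ± 0.3 FPKM in MHCII-lo, and fell by 8.37%, a call also lost under median-of-ratios scaling (limma adjusted p = 0.367). Both j genes fell. In MHCII-hi Eif3j1 was measured at 17.3, 17.8 and 17.4 FPKM, against 21.2, 23.4 and 22.9 FPKM in MHCII-lo. Eif3j2 had 6.65, 7.73 and 9.46 FPKM in MHCII-hi, against 13.8, 11.2 and 10.7 FPKM in MHCII-lo. The libraries of Eif3j2 spread widely within a group but did not overlap between groups, and its call was lost once the length and GC trend was removed (limma adjusted p = 0.0910). The coding sequences of Eif3j1 and Eif3j2 are 99.7% identical over 783 aligned bases, so reads could be split between them and the level of each is uncertain; their sum was 25.5 ± 1.43 FPKM in MHCII-hi and 34.4 ± 0.774 FPKM in MHCII-lo (SD).

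**Figure D2:**
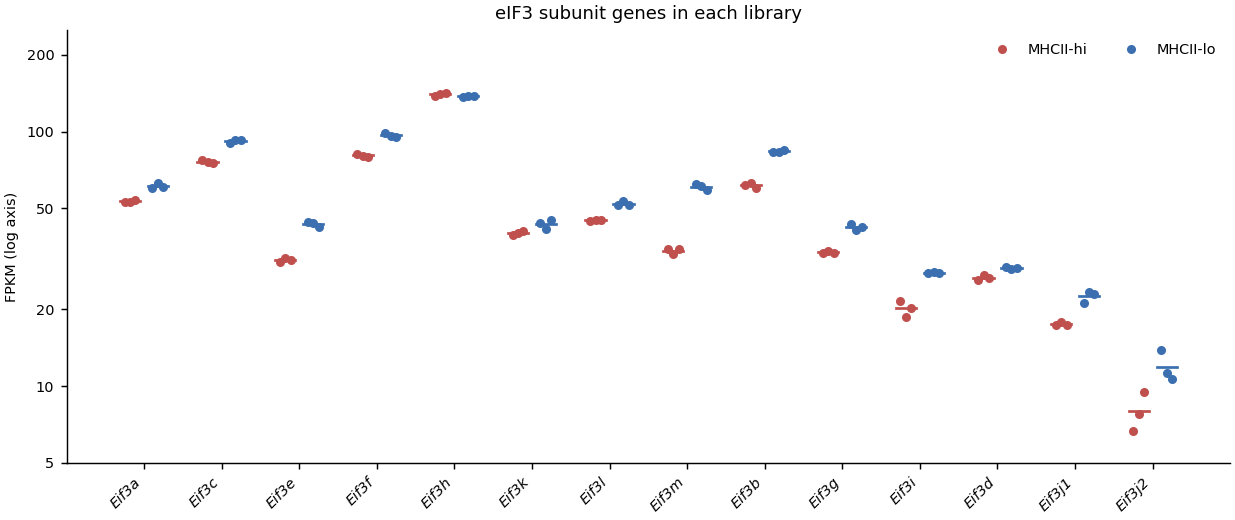
FPKM (log axis) of the 14 eIF3 genes in each library, MHCII-hi in red and MHCII-lo in blue, with bars at group means of 3 libraries; the octamer genes stand first, then b, g and i, then d and the j genes. The 3 MHCII-hi points lie below the 3 MHCII-lo points for 13 genes, with the widest gap at Eif3m, and overlap at Eif3h.

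eIF1 and eIF1A guard the choice of the start codon, and all 5 genes of this group fell, with a median log2 change of -0.51. Eif1ax, the X-linked eIF1A gene, fell by 44.0%. Eif1ax was at 12.3, 12.8 and 11.5 FPKM in MHCII-hi libraries, against 22.3, 21.04 and 22.1 FPKM in MHCII-lo libraries. Its autosomal partner followed. Eif1a stood at 13.2, 13.2 and 11.7 FPKM in the MHCII-hi libraries and at 19.9, 19.4 and 20.7 FPKM in the MHCII-lo libraries. The groups were separate for both genes, and the log2 changes were -0.79 ± 0.044 for Eif1ax and -0.62 ± 0.053 for Eif1a (SE; limma adjusted p = 7.87e-06 and 6.33e-05). The eIF1 genes stood at higher levels. In MHCII-hi Eif1 was measured at 181, 178 and 180.3 FPKM, against 242, 244 and 243 FPKM in MHCII-lo. Eif1b had 24.6, 23.8 and 24.7 FPKM in MHCII-hi, against 36.00, 36.2 and 33.2 FPKM in MHCII-lo. Eif1 fell by 26.0% and Eif1b by 30.6%, again with no overlap. Eif1ad, named for its eIF1A domain, was at 14.4 ± 1.27 FPKM in MHCII-hi and 17.2 ± 0.389 FPKM in MHCII-lo, and its call was lost under median-of-ratios scaling (limma adjusted p = 0.0611).

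eIF2 brings the initiator tRNA, and its 3 subunits are encoded by Eif2s1 (alpha), Eif2s2 (beta) and the X- and Y-linked Eif2s3x and Eif2s3y (gamma). Eif2s1, whose product is the target of the stress kinases, fell most. Eif2s1 was at 17.2, 17.02 and 18 FPKM in MHCII-hi libraries, against 27.6, 27.3 and 26.3 FPKM in MHCII-lo libraries. Eif2s2 was lower as well. Eif2s2 stood at 15.1, 14.4 and 15.6 FPKM in the MHCII-hi libraries and at 19.3, 20.6 and 20.7 FPKM in the MHCII-lo libraries. In both genes the groups were separate, with log2 changes of -0.61 ± 0.032 and -0.40 ± 0.043 (SE; limma adjusted p = 6.49e-06 and 0.000176). The gamma genes differed from each other in their calls. In MHCII-hi Eif2s3x was measured at 37.1, 36.9 and 36.1 FPKM, against 50.5, 50.6 and 51.2 FPKM in MHCII-lo. Eif2s3y had 17.9, 18.4 and 17.5 FPKM in MHCII-hi, against 18.96, 18.1 and 17.9 FPKM in MHCII-lo. Eif2s3x fell by 27.8% with no overlap, while the Eif2s3y groups overlapped (limma adjusted p = 0.436), and after removal of the length and GC trend Eif2s3y was called higher by 0.21 (limma adjusted p = 0.00153). The Y-linked share of the gamma transcripts was 32.5 to 33.3% in MHCII-hi and 25.9 to 27.3% in MHCII-lo. The coding sequences of the 2 gamma genes are 86.3% identical over 1416 bases.

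eIF2B reloads eIF2 with GTP, and 4 of its 5 genes fell, with a median log2 change of -0.41. Eif2b5, which encodes the catalytic epsilon subunit, fell by 30.3%. Eif2b5 was at 14.2, 14.7 and 14.6 FPKM in MHCII-hi libraries, against 20.8, 21.2 and 20.4 FPKM in MHCII-lo libraries. Eif2b1, of the alpha subunit, fell by 28.9%. Eif2b1 stood at 10.2, 10.3 and 11.4 FPKM in the MHCII-hi libraries and at 14.4, 14.2 and 16.2 FPKM in the MHCII-lo libraries. Both pairs of groups were separate. Eif2b3 was at 1.99 ± 0.09 FPKM in MHCII-hi and 2.98 ± 0.195 FPKM in MHCII-lo. Eif2b4 was at 10.1 ± 0.0777 FPKM in MHCII-hi and 11.01 ± 0.457 FPKM in MHCII-lo, and its call was lost under median-of-ratios scaling (limma adjusted p = 0.470) and once the length and GC trend was removed (limma adjusted p = 0.0740). It was also lost without MHCII-hi replicate 2 or 3 or MHCII-lo replicate 1 or 2, with limma adjusted p between 0.0591 and 0.0707. The beta gene Eif2b2 did not pass (limma adjusted p = 0.668), at 20.9 ± 1.99 FPKM in MHCII-hi and 21.4 ± 0.357 FPKM in MHCII-lo. The ratio of Eif2b2 to Eif2b5 within a library was 1.28 to 1.60 in MHCII-hi and 1.01 to 1.06 in MHCII-lo, chosen after the values were seen.

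Of the 3 followed genes for kinases that phosphorylate eIF2 alpha under stress, 1 fell. A further such kinase gene, Eif2ak3, is left out by the naming rule and rose, as given with the stress response below. Eif2ak1, the heme-regulated kinase, fell by 9.31%. In MHCII-hi Eif2ak1 was measured at 18.9, 18.3 and 18.9 FPKM, against 20.9, 20.2 and 20.7 FPKM in MHCII-lo. Eif2ak2, the double-stranded RNA sensor PKR, did not pass. Eif2ak2 had 10.1, 9.05 and 8.33 FPKM in MHCII-hi, against 8.91, 9.46 and 9.39 FPKM in MHCII-lo. Eif2ak1 groups were separate and Eif2ak2 groups overlapped. The call of Eif2ak1 was lost under median-of-ratios scaling (limma adjusted p = 0.209). Eif2ak4, the amino acid sensor GCN2, was at 4.14 ± 0.0361 FPKM in MHCII-hi and 4.2 ± 0.196 FPKM in MHCII-lo and did not pass; once the length and GC trend was removed it was called lower, at -0.14 (limma adjusted p = 0.0318). The alternative initiator tRNA carriers both fell. Eif2a was at 14.1, 13.6 and 13.2 FPKM in MHCII-hi libraries, against 14.6, 15.1 and 15.6 FPKM in MHCII-lo libraries. Eif2d stood at 4.31, 4.58 and 4.57 FPKM in the MHCII-hi libraries and at 4.94, 5.04 and 5.29 FPKM in the MHCII-lo libraries. The groups were separate by small gaps. The fall of Eif2a had the opposite sign, 0.05, once the length and GC trend was removed. The calls of both were lost under median-of-ratios scaling, with adjusted p of 0.300 and 0.202 in limma. Without MHCII-lo replicate 3 the limma adjusted p was 0.0554 for Eif2a and 0.0758 for Eif2d, and that of Eif2d was 0.0596 without MHCII-hi replicate 1 and 0.0524 without MHCII-lo replicate 2.

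eIF4F held members called in both directions. The 8 genes counted here include the homologues Eif4e2, Eif4e3 and Eif4g2, beside those of the complex as described above. Of these 8 genes 6 fell, 1 rose and 1 did not pass, with a median log2 change of -0.18. That median and the summed level of the group depend on this choice of genes. Among the helicase genes, Eif4a1 fell by 30.3%. In MHCII-hi Eif4a1 was measured at 145, 139 and 138 FPKM, against 200.1, 204 and 202 FPKM in MHCII-lo. Eif4a2 fell by 10.8%. Eif4a2 had 89.9, 90.4 and 89.7 FPKM in MHCII-hi, against 101, 101 and 101 FPKM in MHCII-lo. The groups were separate for both in the deposited values, and the change of Eif4a2 turned to 0.06, called higher, once the length and GC trend was removed (limma adjusted p = 0.0139). The processed pseudogene Eif4a-ps4, left out by the rule, had 84.3 to 93.2 FPKM in MHCII-hi and 123 to 128 FPKM in MHCII-lo. Its sequence is 99.9% identical to the Eif4a1 coding sequence over 1218 bases, so the level of Eif4a1 is uncertain; the sum of both rows was 228 ± 4.03 FPKM in MHCII-hi and 327 ± 4.71 FPKM in MHCII-lo (SD).

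The scaffold genes moved apart. Eif4g3 (ENSMUSG00000028760.16; GRCm38 chromosome 4, 137993022 to 138208508, plus strand), a protein-coding gene for a homologue of eIF4G1, rose 1.43-fold. Eif4g3 was at 21.5, 21.5 and 21.01 FPKM in MHCII-hi libraries, against 15.3, 14.7 and 14.6 FPKM in MHCII-lo libraries. Eif4g1, the main scaffold, was lower. Eif4g1 stood at 52.5, 50.3 and 51.2 FPKM in the MHCII-hi libraries and at 61.5, 62.3 and 62.6 FPKM in the MHCII-lo libraries. No library of either gene crossed between the groups, and the log2 changes were 0.49 ± 0.03 for Eif4g3 and -0.27 ± 0.023 for Eif4g1 (SE; limma adjusted p = 1.29e-05 and 5.76e-05). The sum of these 2 genes differed less, at 72.6 ± 1.17 FPKM in MHCII-hi and 76.997 ± 0.196 FPKM in MHCII-lo (SD). Eif4g2, also known as DAP5, which lacks the part that binds eIF4E, was the most abundant of the 3. In MHCII-hi Eif4g2 was measured at 111, 114 and 116 FPKM, against 132, 128 and 130.3 FPKM in MHCII-lo. It fell by 12.6% with no overlap.

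The cap binder Eif4e fell by 25.5%. Eif4e had 15.4, 14.9 and 14.2 FPKM in MHCII-hi, against 20.1, 19.4 and 20.3 FPKM in MHCII-lo. Its homologue Eif4e2, which represses translation of bound mRNAs in several settings, fell by 12.4%. Eif4e2 was at 7.54, 7.57 and 7.23 FPKM in MHCII-hi libraries, against 8.33, 8.78 and 8.38 FPKM in MHCII-lo libraries. Both were separate between the groups, and the call of Eif4e2 was lost under median-of-ratios scaling (limma adjusted p = 0.0877). Eif4e3 did not pass (limma adjusted p = 0.827). Eif4e3 stood at 21.2, 21.1 and 19.4 FPKM in the MHCII-hi libraries and at 20.7, 21.97 and 19.6 FPKM in the MHCII-lo libraries. Its groups overlapped, and its level was close to that of Eif4e in MHCII-lo and above it in all MHCII-hi libraries.

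The cofactors that stimulate eIF4A both fell. In MHCII-hi Eif4h was measured at 32.1, 30.6 and 32.2 FPKM, against 49.5, 47.3 and 47.1 FPKM in MHCII-lo. Eif4b had 90.2, 94.7 and 94.9 FPKM in MHCII-hi, against 116, 115 and 118 FPKM in MHCII-lo. Eif4h fell by 34.0% and Eif4b fell by 19.7%, without overlap. The eIF4E-binding proteins, which keep eIF4E from the scaffold when mTORC1 is inactive, did not share one direction. Eif4ebp2 was at 36.1, 35.5 and 34.7 FPKM in MHCII-hi libraries, against 41.6, 40.2 and 41.2 FPKM in MHCII-lo libraries. Eif4ebp1 stood at 13.3, 13.4 and 14.9 FPKM in the MHCII-hi libraries and at 13.1, 14.1 and 13.3 FPKM in the MHCII-lo libraries. Eif4ebp2 fell by 13.5%, and Eif4ebp1 did not pass (limma adjusted p = 0.542), with overlapping groups. Eif4ebp3 was at 0.717 ± 0.451 FPKM in MHCII-hi and 0.54 ± 0.218 FPKM in MHCII-lo and was not tested. Within a library the summed level of Eif4ebp1 and Eif4ebp2 was 3.21 to 3.49 times that of Eif4e in MHCII-hi and 2.69 to 2.79 times in MHCII-lo, a ratio chosen after the values were seen and given without a test. Eif4enif1 rose by a small amount. In MHCII-hi Eif4enif1 was measured at 16.3, 17.6 and 16.3 FPKM, against 14.9, 14.9 and 15.4 FPKM in MHCII-lo. The groups did not overlap (log2 change 0.14 ± 0.039, SE; limma adjusted p = 0.0177), but without MHCII-lo replicate 1 or 2 the limma adjusted p was 0.0543 and 0.0576, and the call was also lost once the length and GC trend was removed (limma adjusted p = 0.0716). Eif4a3, a helicase of the exon junction complex and not of eIF4F, fell by 28.2%. Eif4a3 had 34.5, 35.2 and 38.6 FPKM in MHCII-hi, against 49.9, 52.1 and 48.7 FPKM in MHCII-lo. Its relatives Eif4a3l1 and Eif4a3l2 stayed at or below 0.18 FPKM in all libraries.

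**Figure D3:**
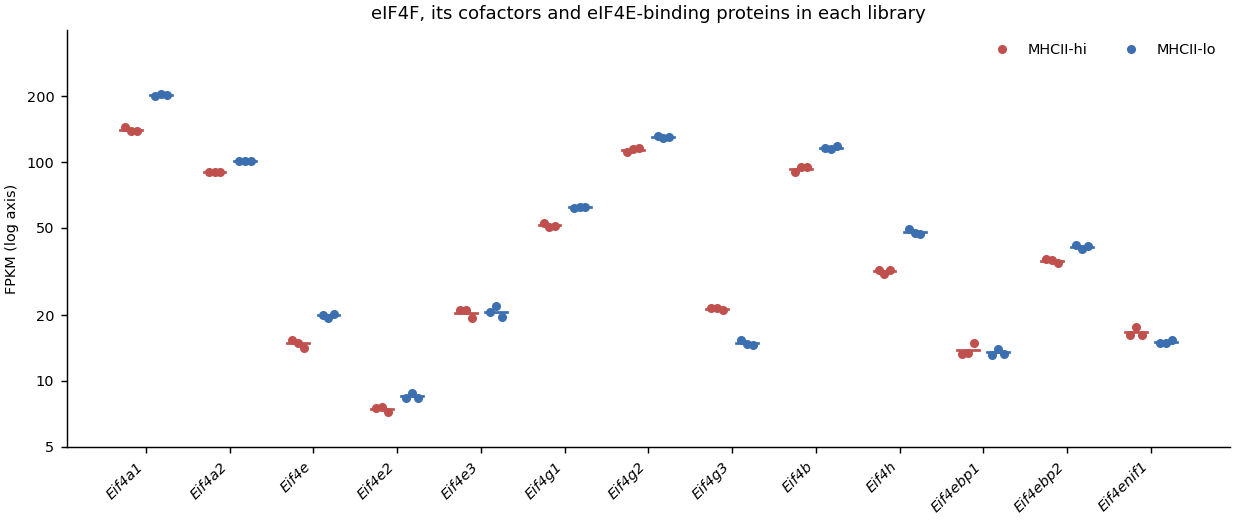
FPKM (log axis) of the eIF4F genes, the cofactors Eif4b and Eif4h, Eif4ebp1, Eif4ebp2 and Eif4enif1 in each library, MHCII-hi in red and MHCII-lo in blue, with bars at group means of 3 libraries. Eif4g3 and Eif4enif1 stand higher in MHCII-hi, Eif4e3 and Eif4ebp1 overlap, and the other genes stand lower in MHCII-hi.

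The factors of subunit joining and ribosome maturation all fell. Eif6, which keeps the large subunit from joining too early and takes part in its maturation, fell by 38.7%. Eif6 was at 13.6, 13.5 and 15.2 FPKM in MHCII-hi libraries, against 22.8, 23.1 and 23.1 FPKM in MHCII-lo libraries. Eif5b, the GTPase of subunit joining, fell by 17.3%. Eif5b stood at 11.7, 12.6 and 12.4 FPKM in the MHCII-hi libraries and at 14.8, 14.9 and 14.6 FPKM in the MHCII-lo libraries. Both were separate between the groups. Eif5, which triggers GTP hydrolysis by eIF2, was at 91.9 ± 0.769 FPKM in MHCII-hi and 101 ± 1.26 FPKM in MHCII-lo, and its call was lost under median-of-ratios scaling (limma adjusted p = 0.0548) and once the length and GC trend was removed (limma adjusted p = 0.176); with the trend based on median transcript length it was called higher, at 0.10 (limma adjusted p = 0.00223). eIF5A, which carries the amino acid hypusine and relieves stalled ribosomes, is encoded mainly by Eif5a here. In MHCII-hi Eif5a was measured at 209, 205 and 211 FPKM, against 307, 308 and 304 FPKM in MHCII-lo. Eif5a2 had 0.97, 1.07 and 1.06 FPKM in MHCII-hi, against 1.3, 1.25 and 1.16 FPKM in MHCII-lo. Eif5a fell by 32.0% without overlap, and Eif5a2, near the expression minimum, did not pass (limma adjusted p = 0.129); it was called lower under quantile normalization (limma adjusted p = 0.0301) and without a mean-variance trend (limma adjusted p = 0.0210).

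Elongation factors were the most abundant of these transcripts. Eef1a1 alone made up 0.869% of all FPKM in MHCII-hi and 1.03% in MHCII-lo, and it fell by 8.21%. Eef1a1 was at 2866, 2909.6 and 2914 FPKM in MHCII-hi libraries, against 3172, 3164 and 3129.6 FPKM in MHCII-lo libraries. Eef2 fell by 12.4%. Eef2 stood at 598, 596 and 594 FPKM in the MHCII-hi libraries and at 678, 679.8 and 684 FPKM in the MHCII-lo libraries. Neither overlapped, and both falls were small, with log2 changes of -0.12 ± 0.01 for Eef1a1 and -0.19 ± 0.01 for Eef2 (SE; limma adjusted p = 5.05e-05 and 6.73e-06). The call of Eef1a1 was lost under median-of-ratios scaling (limma adjusted p = 0.0690).

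The summed eEF1B genes stood at 0.629 of the MHCII-lo level in MHCII-hi, and eEF1A at 0.918. Eef1b2 (ENSMUSG00000025967.16; GRCm38 chromosome 1, 63176825 to 63180486, plus strand), a protein-coding gene for the catalytic beta subunit, had the largest fall of the 64 genes on the log2(FPKM + 1) scale; in the ratio of means it stood at 0.523 and Eef1akmt1 at 0.505. In MHCII-hi Eef1b2 was measured at 114, 114 and 115 FPKM, against 222, 215 and 217 FPKM in MHCII-lo. The groups stood far apart, with a log2 change of -0.93 ± 0.017 (SE; limma adjusted p = 7.36e-08). Eef1g, the structural gamma subunit, fell by 27.1%. Eef1g had 139, 145 and 143 FPKM in MHCII-hi, against 192, 203 and 191 FPKM in MHCII-lo. Eef1d, another exchange subunit, was at 13.6 ± 0.333 FPKM in MHCII-hi and 16.1 ± 0.666 FPKM in MHCII-lo; its exons overlap those of Naprt on the same strand in GENCODE M21, so its level is uncertain. The ratio of Eef1b2 to Eef1a1 within a library was 0.0391 to 0.0398 in MHCII-hi and 0.0680 to 0.0700 in MHCII-lo, chosen after the values were seen.

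Enzymes that modify elongation factors also fell, at low levels. Of the 5 tested methyltransferase genes 4 fell. Eef1akmt1, which methylates a lysine of eEF1A, fell by 49.5%. Eef1akmt1 was at 5.67, 6.25 and 6.65 FPKM in MHCII-hi libraries, against 12.7, 12.3 and 11.8 FPKM in MHCII-lo libraries. Eef1akmt4, another lysine methyltransferase of eEF1A, stood at a log2 change of -0.70. Eef1akmt4 stood at 3.06, 3.39 and 3.0 FPKM in the MHCII-hi libraries and at 5.93, 5.77 and 5.48 FPKM in the MHCII-lo libraries. Both sets of groups were separate; the exons of Eef1akmt4 overlap a coding gene model on the same strand, so its level is uncertain. Eef1akmt2 was at 4.65 ± 0.324 FPKM in MHCII-hi and 6.88 ± 0.186 FPKM in MHCII-lo and Eef1aknmt at 1.28 ± 0.104 FPKM in MHCII-hi and 2.02 ± 0.0503 FPKM in MHCII-lo. Eef2kmt, which methylates eEF2, did not pass (limma adjusted p = 0.0943), and Eef1akmt3 stayed at or below 0.09 FPKM. Eef2k, the kinase that inhibits eEF2, was the only tested elongation gene with a higher mean in MHCII-hi and did not pass. In MHCII-hi Eef2k was measured at 12.2, 12.6 and 12.2 FPKM, against 11.3, 11.6 and 12.1 FPKM in MHCII-lo. Its groups were separate (limma adjusted p = 0.0887), and it passed as higher under median-of-ratios scaling (limma adjusted p = 0.00514) and quantile normalization (limma adjusted p = 0.0259). Once the length and GC trend was removed its sign turned, to -0.0878, without a call (limma adjusted p = 0.0550). Eef1e1, which encodes a subunit of the multi-tRNA synthetase complex, fell by 34.2%. Eef1e1 had 5.69, 5.94 and 5.66 FPKM in MHCII-hi, against 9.17, 8.72 and 8.38 FPKM in MHCII-lo.

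The balance between paralogues of the same factor was described by the share of 1 gene in the summed FPKM of a pair. Shares were compared in 11 pairs with a two-sided exact permutation test over libraries, which cannot go below 0.10 for 3 against 3, so no pair could pass. The groups did not overlap in 8 pairs, each at the smallest exact permutation p of 0.1 (0.138 adjusted over the 11 pairs). For scale, 43.3% of all tested genes had every MHCII-hi library below every MHCII-lo library, and 29.6% had the reverse. Separate groups were thus common among single genes, and the count of pairs does not stand out from them. No such share was computed for other gene pairs. The Eif4g3 share differed most. It was 29.4 ± 0.496% in MHCII-hi and 19.3 ± 0.598% in MHCII-lo of the sum with Eif4g1 (SD). The Eif4e3 share was 58.0 ± 0.448% in MHCII-hi and 50.98 ± 1.99% in MHCII-lo of the sum with Eif4e (SD). The share of Eif4a2 was 38.99 ± 0.647% in MHCII-hi and 33.3 ± 0.252% in MHCII-lo of the sum with Eif4a1 (SD). That sum leaves out the pseudogene Eif4a-ps4, which makes the Eif4a1 level, and with it the Eif4a2 share, uncertain. Eif4e2 took 33.4 ± 0.471% in MHCII-hi and 29.9 ± 1.06% in MHCII-lo of the sum with Eif4e (SD). Shares that were lower in MHCII-hi without overlap were those of Eif1ax, at 49.0 ± 0.708% in MHCII-hi and 52.1 ± 0.636% in MHCII-lo (SD), and Eif4ebp2, at 71.8 ± 1.70% in MHCII-hi and 75.2 ± 1.01% in MHCII-lo (SD). The groups overlapped for the shares of Eif1b, Eif3j2 and Eif4g2. Eif5a2 stayed at or below 0.520% of its pair in all libraries.

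**Figure D4:**
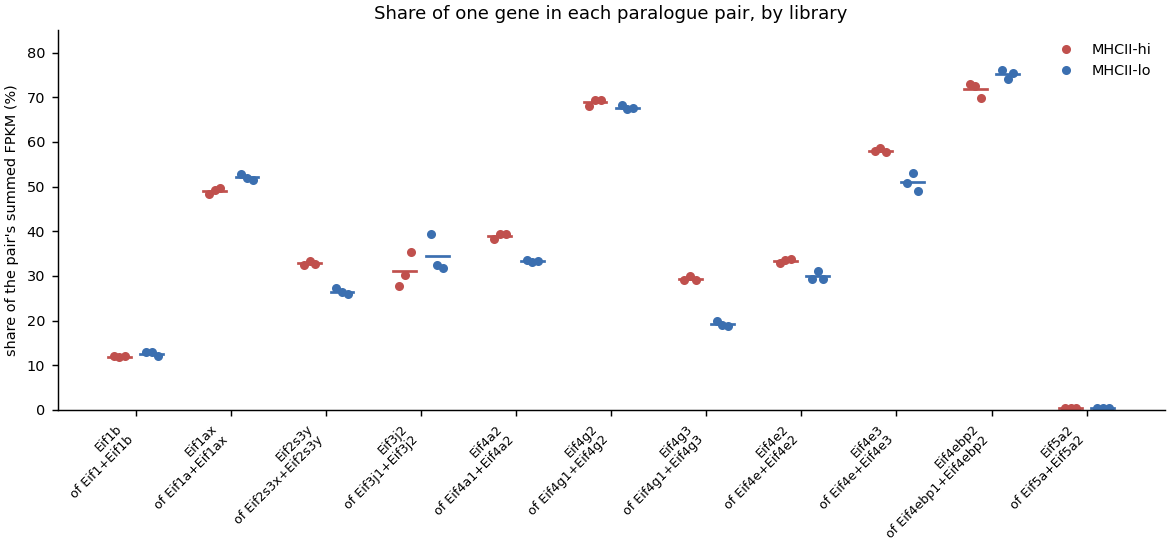
Share of 1 gene in the summed FPKM of a paralogue pair (percent, axis from 0) in each library, MHCII-hi in red and MHCII-lo in blue, with bars at group means of 3 libraries. The widest gap is the Eif4g3 share of Eif4g1 and Eif4g3, 29.4% in MHCII-hi and 19.3% in MHCII-lo.

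Set side by side, the complexes differed in how far and how uniformly their genes fell. The median log2 change was -0.51 for eIF1 and eIF1A, -0.43 for eIF2, -0.41 for eIF2B, -0.29 for eIF3 and -0.18 for eIF4F. It was -0.02 for the eIF2 kinases without Eif2ak3, which the naming rule leaves out and which rose. These are medians of 3 to 14 genes in the same libraries, and the differences between complexes were not tested. The eIF4F group again includes the homologues Eif4e2, Eif4e3 and Eif4g2. In summed FPKM, eIF2 stood at 87.1 ± 0.291 in MHCII-hi and 116 ± 0.243 in MHCII-lo (SD), a ratio of 0.748. Without Eif2s3y the eIF2 ratio was 0.705. The eIF4F sum was 460.03 ± 3.93 FPKM in MHCII-hi and 559 ± 1.03 FPKM in MHCII-lo (SD), a ratio of 0.823, and that of eIF3 had a ratio of 0.830. The 3 core elongation factors eEF1A, eEF1B and eEF2 summed to 3762 ± 28.0 FPKM in MHCII-hi and 4265 ± 24.2 FPKM in MHCII-lo (SD), a ratio of 0.882. Most of that sum was Eef1a1, at 2896 FPKM in MHCII-hi and 3155 FPKM in MHCII-lo. The median log2 change of the 5 core elongation genes was -0.23. Such summed ratios weigh abundant genes most.

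Transcript length moved with the change and is given beside it. Over the 63 tested genes with an annotated length, Pearson's r between log2 length and log2 change was 0.38 and Spearman's rho 0.30, as a description across genes that share all 6 libraries. The 31 genes with transcripts shorter than 2553 bases showed a median difference of -0.43 (log2), and 25 of them fell; the 32 longer ones had a median of -0.24, and 26 fell. Split at the same length, the median was -0.15 over the 5733 shorter and -0.03 over the 6321 longer of all tested genes with a length. The part of transcript length in the result was not tested beyond this. Eif4g3 has the longest transcript of the group and Eef1akmt1 and Eif3k the shortest; Eif3k fell by 7.68% and Eef1akmt1 fell by 49.5%. With each library's trend on length and GC content removed, 48 of the 64 genes fell, 3 rose, and the median was -0.28. Over all tested genes the median in that setting was -0.08.

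**Figure D5:**
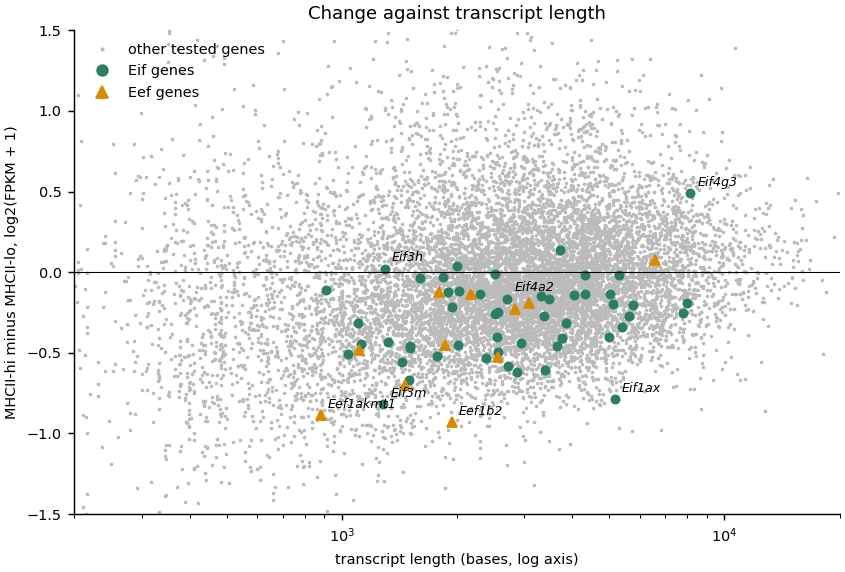
Difference between MHCII-hi and MHCII-lo on the log2(FPKM + 1) scale against the length of the longest coding transcript (bases, log axis) for 63 of the tested genes (Eif genes as circles, Eef genes as triangles) and for 11442 other tested genes in grey; 549 other genes lie outside the axes. The marked genes lie mostly below 0 at all lengths, with Eif4g3 above.

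The other genes of the pathway were followed on 5 lists. Of 10 release and recycling factors, which end translation and split the ribosome, 8 fell, 1 rose and 1 did not pass. Their median log2 change was -0.37. Of all tested genes 40.5% fell and 27.2% rose. Mcts1, a recycling factor, was at 13.6 ± 1.2 FPKM in MHCII-hi and 26.1 ± 0.163 FPKM in MHCII-lo, and fell. Its retrogene Mcts2, named after its values were seen as the only riser of the list, was at 8.34 ± 0.382 FPKM in MHCII-hi and 6.32 ± 0.476 FPKM in MHCII-lo; retrogene copies can share reads, so both levels are uncertain. The release factor Gspt1 was at 22.7 ± 1.09 FPKM in MHCII-hi and 32.9 ± 0.63 FPKM in MHCII-lo and the rescue factor Pelo at 5.63 ± 0.925 FPKM in MHCII-hi and 8.09 ± 0.235 FPKM in MHCII-lo, and both fell. Abce1, which splits the ribosome, fell too, at 24.3 ± 0.802 FPKM in MHCII-hi and 32.3 ± 0.843 FPKM in MHCII-lo.

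Of 10 mitochondrial translation factors 8 fell and none rose, at a median of -0.36 (log2), where 40.5% of all tested genes fell and 27.2% rose. The elongation factor Tsfm fell, at 2.56 ± 0.0889 FPKM in MHCII-hi and 5.19 ± 0.291 FPKM in MHCII-lo. Tufm fell too, at 24.1 ± 1.41 FPKM in MHCII-hi and 31.6 ± 1.21 FPKM in MHCII-lo. Mtrf1l stands on this list and the one before and did not pass. In addition Mtrf1, a release factor, was at 1.88 ± 0.292 FPKM in MHCII-hi and 2.91 ± 0.0289 FPKM in MHCII-lo and the recycling factor Mrrf at 2.40 ± 0.245 FPKM in MHCII-hi and 3.40 ± 0.185 FPKM in MHCII-lo. Of 13 accessory initiation proteins 9 fell, 3 rose and 1 did not pass, with a median of -0.18. The background is the same 40.5% and 27.2%. Dohh, an enzyme that makes hypusine on eIF5A, was at 7.25 ± 0.874 FPKM in MHCII-hi and 10.4 ± 1.03 FPKM in MHCII-lo, the poly(A) binding protein Pabpc4 at 37.9 ± 0.231 FPKM in MHCII-hi and 49.7 ± 1.09 FPKM in MHCII-lo and the abundant Tpt1 at 576 ± 5.99 FPKM in MHCII-hi and 728 ± 5.35 FPKM in MHCII-lo, and all 3 fell. Mknk1, a kinase of eIF4E, was at 20.5 ± 0.588 FPKM in MHCII-hi and 16.9 ± 0.38 FPKM in MHCII-lo and rose.

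Of 12 genes of the mTORC1 pathway, 4 rose, 4 fell and 4 did not pass, with a median log2 change of 0.09. Over all tested genes 27.2% rose and 40.5% fell, so neither count stands far from the background. mTORC1 is the kinase complex that frees eIF4E, and the list holds its components, activators, inhibitors and targets together. Its counts therefore give no direction for the complex. The S6 kinase gene Rps6kb2 rose 1.78-fold and was at 11.2 ± 0.173 FPKM in MHCII-hi and 6.30 ± 0.601 FPKM in MHCII-lo, the activator Rheb fell and was at 5.54 ± 0.484 FPKM in MHCII-hi and 8.79 ± 0.232 FPKM in MHCII-lo, and Pdcd4, an inhibitor of eIF4A, fell and was at 30.00 ± 0.577 FPKM in MHCII-hi and 39.6 ± 0.682 FPKM in MHCII-lo. Deptor, an inhibitor of mTOR, fell too and was at 2.09 ± 0.171 FPKM in MHCII-hi and 2.87 ± 0.0954 FPKM in MHCII-lo. Of 10 tested genes of the integrated stress response, the program set off by eIF2 phosphorylation, 6 rose and 3 fell. Their median was 0.27, and the background is the same 27.2% that rose and 40.5% that fell. Ppp1r15a, which directs the removal of that phosphate, rose 1.69-fold and was at 111 ± 1.06 FPKM in MHCII-hi and 65.4 ± 0.998 FPKM in MHCII-lo. Asns, an asparagine synthetase, fell and was at 9.43 ± 0.0608 FPKM in MHCII-hi and 15.2 ± 0.199 FPKM in MHCII-lo. Ddit4, an inhibitor of mTORC1, rose and was at 16.7 ± 0.663 FPKM in MHCII-hi and 10.8 ± 0.747 FPKM in MHCII-lo, and Sesn2 rose and was at 6.42 ± 0.455 FPKM in MHCII-hi and 4.30 ± 0.272 FPKM in MHCII-lo. The kinase gene Eif2ak3, which the naming rule leaves out, stands on this list and is among the 6 that rose. It is named here after its values were seen, and was at 12.1 ± 0.78 FPKM in MHCII-hi and 9.44 ± 0.338 FPKM in MHCII-lo.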

How the data were processed

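Stranded poly(A) libraries were made from sorted cells, per the labels' protocols. GRCm38 and mm10 are the builds, and StringTie, HISAT2 and fastp the tools, that appear per the submitters' processing notes, without versions or roles. The authors deposited 1 table of values per library, which were taken as FPKM from their form; read counts and depth were not used here, so no counting error is given. A gene entered the test when its 6 values averaged 1 FPKM or more, and the test used log2(value + 1), a pseudocount of 1 that understates the change of low genes, with limma 3.58.1 in R 4.3.3 (mean-variance trend, Benjamini-Hochberg adjustment over 12295 genes, threshold 0.05). The test was also run on simulated data with independent noise and few changed genes, in both directions. In the real data 67.8% of tested genes were called, so that run cannot judge the scaling or false calls here. Lengths, coordinates and coding sequences came from GENCODE M21 on GRCm38, and promoters from RefSeq on GRCm38.p6. Values in each library are given for changes of at least 0.58, for the 2 largest changes of each complex and for both genes of each paralogue pair. Of the lists, up to 4 called genes with the largest changes are named. The members and lists were chosen with earlier results of these data known. Alternatives were other pseudocounts, filters, scalings and variance models, a replicate block, removal of a length and GC trend, and leaving out each library.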

Additional observations from a re-analysis of the deposited data

How the results depend on the processing

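The count of genes that fell was 52 in the analysis reported and 42 to 53 over all alternatives, lowest under median-of-ratios scaling. The count that rose was 2, and it was 4 under median-of-ratios scaling and 4 with the length and GC trend removed by median transcript length, a setting chosen after seeing the data; leaving out each library in turn gave 1 to 2 that rose and 49 to 51 that fell. The lowest of these, 1, came without MHCII-lo replicate 1 and without MHCII-lo replicate 2, where the call of Eif4enif1 was lost, as it was with the length and GC trend removed, where the 3 genes that rose were Eif4g3, Eif2s3y and Eif4a2. With the length and GC trend removed, the sign turned, among genes called in either analysis, for Eif2s3y (0.21, or 0.19 by median length), Eif2a (0.0505) and Eif4a2 (0.0592, or 0.0107 by median length). By median length it also turned for Eif3h (-0.0793) and Eif5 (0.10). Among genes called in neither, it turned for Eef2k (-0.0878), Eif2ak2 (0.0386, or 0.0652 by median length) and Eif4e3 (0.14). Quantile or median-of-ratios scaling turned it, without a call, for Eif2s3y, Eif2ak2, Eif2ak4, Eif2b2 and Eif4e3, and leaving out 1 library for Eif2ak2, Eif2ak4, Eif2b2, Eif4ebp1 and Eif4e3. The cause was not tested. Of the 54 called genes, 41 kept direction and call under every alternative that tested them and 13 did not. The deviations of same-numbered libraries from their group means correlated at 0.0626, 0.0019 and 0.0804 across genes. Those of differently numbered libraries correlated at -0.0949 to 0.0251. Deviations from a mean of 3 libraries are tied to each other, so these values cannot decide whether replicate numbers pair the libraries. With a replicate block 2 genes rose and 52 fell. The unknown depth, 3 libraries a group and the unstated number of animals limit the precision.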
